A study of Mus musculus with 49 samples.

Results

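RLTR insertions of the ERVK class are copies of mouse endogenous retroviruses of class II, most of them solitary long terminal repeats (LTRs), whose names begin with RLTR. The insertions described here were all RLTR copies of this class, RLTRETN excepted, that were read in 25% or more of those TBP experiment embryos whose counted reads reached 500000. Of 164142 such copies in the annotation, 10125 had a read in any of these 18 embryos, and 907 met the minimum. They were 907 of the 40760 insertions of transposable elements (TEs) of any kind that met it, and they belonged to 118 of 147 RLTR families.

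Single late 2-cell embryos were sequenced with Smart-seq+5', a protocol for single cells or embryos that separates reads that begin at a transcript's 5' end from internal fragments, and only 5' end reads were counted. The study asked whether TBP or FOXJ3 controls TEs at the 2-cell stage. In Trim-Away, an antibody directs its target protein to the ubiquitin ligase TRIM21, which leads to degradation of the protein. Zygotes came from F1(C57BL/6JxCBA/H) females mated with F1 males. They were injected with an antibody against TBP (TBP LOF) or with mouse IgG (CONTROL). Both groups received mCherry-Trim21 mRNA 4 h later and were lysed 48 h post-hCG. There were 9 TBP LOF and 10 CONTROL embryos, each a library of its own, of which CONTROL embryo 7 had too few reads and was left out. In the second experiment, 17 embryos of the same cross and age received an antibody against FOXJ3 and 13 received rabbit IgG, also followed by the Trim21 mRNA, in 2 library batches, and 16 and 13 of them were used. The labels state that the TBP embryos came from 3 biological replicates, without saying which embryo came from which, so p-values measure the spread between embryos.

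Each LTR of an endogenous retrovirus carries a promoter, and a solitary LTR, left when the internal sequence is lost by recombination, can still start transcripts. In many mouse cells copies of the ERVK class are silenced by KRAB zinc finger proteins, their partner TRIM28 and the histone methyltransferase SETDB1, and some RLTR9, RLTR13 and RLTR17 LTRs act as enhancers in embryonic or trophoblast stem cells. TBP is the protein that binds the TATA box and begins the assembly of the machinery of transcription at a promoter.

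A copy is named here as in the annotation, by its family and a copy number, so that RLTR9E_dup1052 is one copy of RLTR9E. The tables pair no position with a copy, and chromosome, surrounding genes and sequence are therefore not described. The sources used here do not say how reads that match several copies were divided among them, which matters most for families with many near-identical copies.

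Counted reads in the embryos used lay between 1160150 and 5434808 in CONTROL and between 1295251 and 4166903 in TBP LOF. ERCC spike-in RNA, added in the same amount to every embryo, took a median of 2.82% of reads in CONTROL (2.22 to 3.25%) and 4.38% in TBP LOF (2.67 to 6.12%). Levels below are read counts scaled by the spike-ins (normalised counts) and so refer to the whole embryo. Embryos of both groups were collected at the late 2-cell stage, and RNA per cell was not measured. By their transcriptomes, the study placed TBP LOF embryos nearer to earlier stages than CONTROL embryos, and it proposes a developmental delay. The part of such a delay in the levels below was not tested. On the spike-in scale the median log2 fold change between TBP LOF and CONTROL was -0.69 over the 40760 TE insertions and -0.69 over 18447 genes. With TMM scaling, which centres the bulk of features near no change, the median over TE insertions was -0.06, and counts of calls are given on both scales. Tbp mRNA itself was lower in TBP LOF (log2 fold change -2.14 ± 0.37 (SE), edgeR adjusted p = 5.26e-06). Of 7 genes typical of the late 2-cell stage all were detected, at a summed normalised count of 185 to 639 in CONTROL and 265 to 864 in TBP LOF. Usp17lc, one of the 7, was higher in TBP LOF (1.38 ± 0.40 (SE), edgeR adjusted p = 0.00515), none was lower, and 3 were higher with TMM scaling, and their part in the results was not tested. Of 5 cumulus cell genes, Has2 and Ptx3 had no read, Vcan had 1, and the summed level was at most 46.8 in CONTROL and 4.55 in TBP LOF, nearly all of it Tnfaip6. Tnfaip6 was lower in TBP LOF (log2 fold change -2.46 ± 0.75 (SE), edgeR adjusted p = 0.00865) and highest in CONTROL embryo 1 (45.1, the other CONTROL embryos at most 8.74). Without that embryo 91 of the RLTR insertions described below were lower in place of 107. This number lay within the range found when each embryo was left out in turn.

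The 907 insertions together held 41008 reads, 0.111% of all counted reads, and most were weakly covered. The median insertion had 20 reads over the 18 embryos, 827 had fewer than 100, and 20 had reads in every embryo. The 100 insertions with the most reads held 54.0% of the reads. Summed over the 907, normalised counts per embryo were 1780 at the lowest, 2721 at the median and 3585 at the highest in CONTROL, and 802, 2000 and 2660 in TBP LOF. The groups overlapped, with TBP LOF embryos below the lowest CONTROL embryo as well as among the others. As a share of counted reads, in counts scaled to one library total (CPM), the same sums were 974, 1116 and 1752 CPM in CONTROL and 772, 1141 and 1378 CPM in TBP LOF, and the medians were close.

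In the test of single insertions, 107 of the 907 RLTR insertions were lower and 9 higher in TBP LOF (edgeR, adjusted p below 0.05, adjusted over all 59207 genes and insertions). Among all TE insertions 11.6% were lower and 0.844% higher, against 11.8% and 0.992% of the RLTR insertions, so the share of RLTR insertions called was near the background. Over genes and insertions together 14.6% were lower and 0.76% higher. The median log2 fold change of the 907 RLTR insertions was -0.61. With TMM scaling 59 were lower and 18 higher, where 5.74% and 2.19% of all TE insertions were called, and all 59 were among the 107. The calls went with the group in which an insertion reached the minimum, a split that a change in level itself helps to decide. Of the 907, 447 had reads in at least 25% of the embryos of both groups, and 24 of these were lower and none higher, beside 7.09% lower and 0.424% higher of such TE insertions. A further 275 reached the minimum only in CONTROL, of which 83 (30.2%) were lower, as were 28.7% of such TE insertions. The other 185 reached it only in TBP LOF, of which 9 (4.86%) were higher, as were 4.68% of such TE insertions, and calls in the other direction were few among TE insertions of either kind (0.0395% and 0.223%). The 107 lower insertions came from 50 families, and 44 of them had no read in any TBP LOF embryo. For these 44 the mean normalised count in CONTROL was 3.11 to 67.0 times the level of 3 reads over the 9 TBP LOF embryos. That level is 3 over their summed size factors, so these ratios differ from ratios of pooled reads and are not lower bounds. Intervals from reads cover counting error only.

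**Figure D1:**
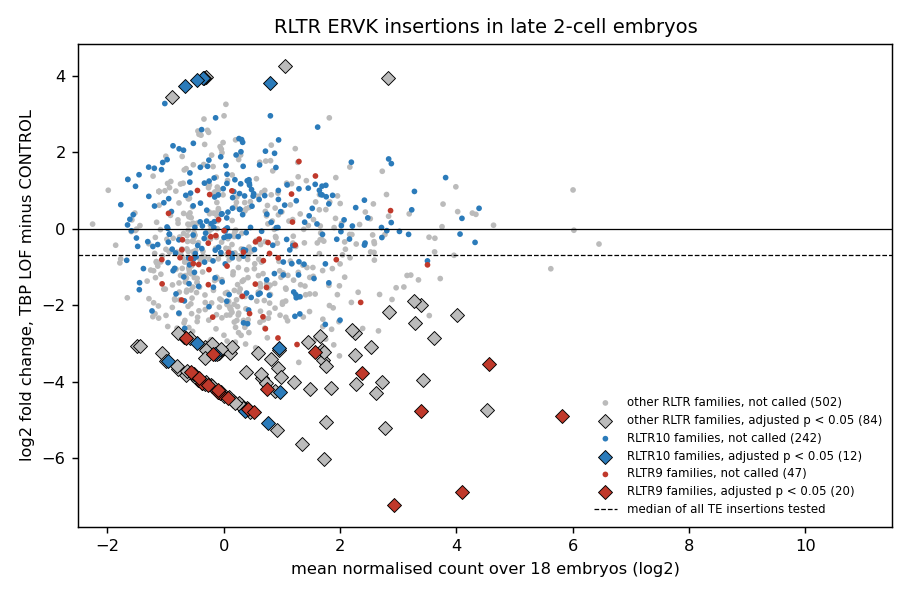
Each point is one of the 907 RLTR insertions, with its mean normalised count over 18 embryos (log2) on the x axis and its log2 fold change, TBP LOF minus CONTROL, on the y axis. Diamonds mark adjusted p below 0.05, red the RLTR9 families, of which 20 were called and all lower, and blue the RLTR10 families, of which 12 were called, 8 lower and 4 higher, and the dashed line is the median of all TE insertions tested (-0.69).

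The families did not share one pattern. Over all TE insertions, 11.6% were lower and 0.844% higher, and with TMM scaling 5.74% and 2.19%. RLTR9, named for the number after RLTR and holding 13 families, had 67 insertions, of which 20 (29.9%) were lower and 0 higher, with a median log2 fold change of -1.07. With TMM scaling 16 of the 67 were lower and 0 higher. RLTR10, the group with the most insertions, had 254, of which 8 (3.15%) were lower and 4 higher, with a median of 0.07. With TMM scaling 5 of the 254 were lower and 9 higher, with a median of 0.67, so the balance of calls turned over with the scaling. In the share called lower, the other large groups lay between these, with 12 of 58 RLTR11, 10 of 56 RLTR45, 10 of 42 RLTR12, 7 of 54 RLTR31 and 3 of 50 RLTR13 insertions lower, while the median log2 fold changes of RLTR45 (-1.39) and RLTR12 (-1.32) were below that of RLTR9. With TMM scaling 4 RLTR11, 3 RLTR45, 4 RLTR12, 3 RLTR31 and 1 RLTR13 insertions were lower. These shares and medians pool insertions that reached the minimum in both TBP LOF and CONTROL or in only 1 of them, and were not split by this. LTRs made up 838 of the insertions and internal sequences 69, and 100 and 7 of them were lower, or 11.9% and 10.1%.

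RLTR9E was covered by 23 insertions, 1.71% of its 1344 annotated copies, and 210 copies had at least 1 read. Of the 23, 9 were lower and 0 higher, and the same number, 9, was lower with TMM scaling. Among the 7 copies with reads in at least 25% of the embryos of both groups 3 were lower, with a median log2 fold change of -3.03, against 7.09% lower and a median of -0.44 for all TE insertions of this kind. Of the 14 copies that reached this only in CONTROL, 6 were called lower, beside 28.7% of such TE insertions. The other 2 of the 23 reached it only in TBP LOF. The copies together had 1752 reads in CONTROL and 192 in TBP LOF, and the 2 copies with the highest mean held 70.8% of them.

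RLTR9E_dup1052, the RLTR9E copy with the highest level, had the highest mean of all 907 insertions in CONTROL (110 ± 71.5, SD, n = 9) and ranked 105 in TBP LOF (3.66 ± 4.71). It had a lowest, median and highest normalised count of 26.9, 107 and 230 in CONTROL and of 0, 1.57 and 11.96 in TBP LOF. The groups did not overlap, and 3 TBP LOF embryos had no read from this copy. It fell by 4.89 ± 0.76 (SE) on the log2 scale (edgeR, adjusted p = 0.000153, and -4.10 with TMM scaling). RLTR9E_dup1253 had 15.5, 41.2 and 90.2 in CONTROL and 0, 1.57 and 14.4 in TBP LOF, again without overlap although the highest TBP LOF embryo came close to the lowest CONTROL embryo. It fell by 3.55 ± 0.71 (SE) on the log2 scale (edgeR, adjusted p = 0.00144).

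RLTR9E_dup932 had 0, 11.3 and 26.6 in CONTROL and 0, 0 and 2.88 in TBP LOF, and the log2 fold change was -3.76 ± 1.02 (SE) (edgeR, adjusted p = 0.0136). Its groups overlapped, with 3 CONTROL embryos below the highest TBP LOF embryo. The other copies named by their level did not pass the test. RLTR9E_dup645 had 0, 1.47 and 14.3 in CONTROL and 0, 0 and 3.15 in TBP LOF (log2 fold change -3.03 ± 1.14 (SE), edgeR adjusted p = 0.0716). RLTR9E_dup1070 had 0, 1.65 and 5.88 in CONTROL and 0, 2.28 and 7.18 in TBP LOF (0.18 ± 1.03 (SE), edgeR adjusted p = 0.941), a difference smaller than its error. The remaining 6 lower copies had no read in TBP LOF. Their mean normalised counts in CONTROL were 6.52 to 12.5 times the level of 3 reads over the 9 TBP LOF embryos. Of these, RLTR9E_dup627 and RLTR9E_dup633 had the same number of reads in 17 of the 18 embryos (16 and 17 reads in all), and whether the same reads were counted for both cannot be told here. Over the 907 insertions, 18 belonged to such pairs within a family, and these 2 were the only ones of them called. Without RLTR9E_dup1052 and RLTR9E_dup1253, the other 21 copies summed to 20.1, 52.9 and 98.5 in CONTROL and 2.18, 9.13 and 34.6 in TBP LOF, which left the groups with an overlap.

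**Figure D2:**
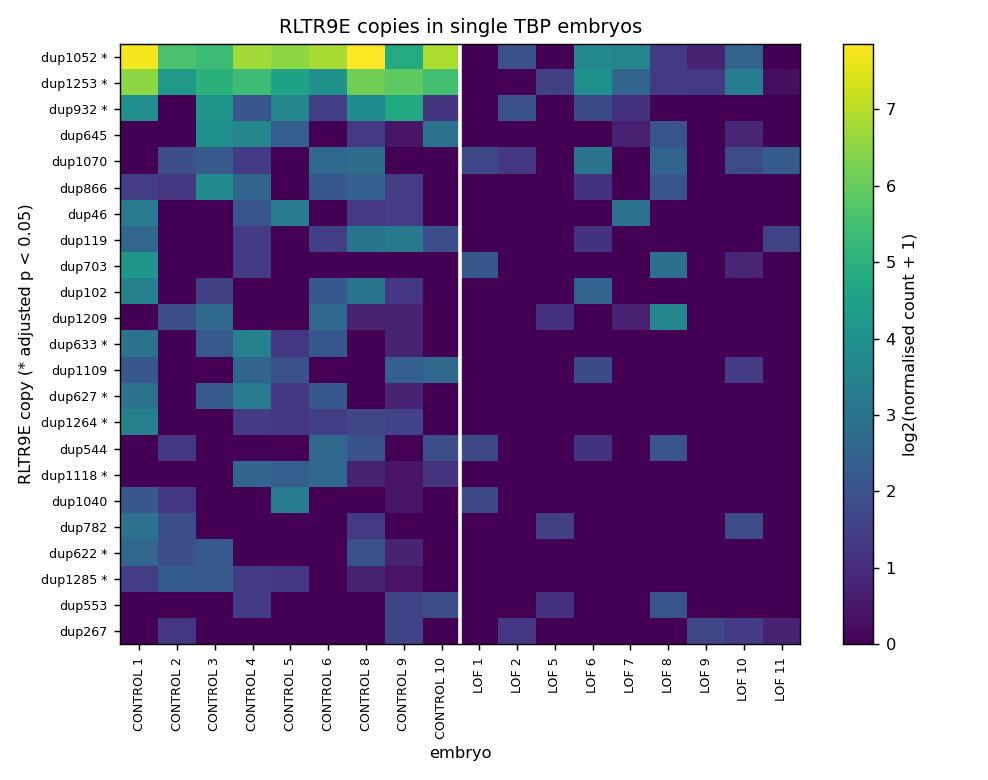
Each row is one of the 23 RLTR9E copies, ordered by mean level, and each column one embryo, with CONTROL left and TBP LOF right of the white line; colour gives log2(normalised count + 1). The 2 top rows, dup1052 and dup1253, had reads in all 9 CONTROL embryos, 6 of the other rows had no read in any TBP LOF embryo, and asterisks mark the 9 copies with adjusted p below 0.05.

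RLTR9D had 15 insertions, of which 5 were lower and 0 higher, 4 of them among the 7 that reached the minimum of 25% of embryos only in CONTROL and 1 among the 5 that reached it in both groups. Of all TE insertions of these 2 kinds, 28.7% and 7.09% were lower. RLTR9D_dup360 had the smallest adjusted p of the 907 insertions. Its lowest, median and highest normalised count was 1.34, 23.9 and 93.5 in CONTROL and 0, 0 and 1.44 in TBP LOF, from 301 reads in CONTROL and 2 in TBP LOF. All 9 CONTROL embryos but only 2 TBP LOF embryos had a read, and the groups overlapped through CONTROL embryo 2. Reads pooled over each group and divided by its summed size factors were 222-fold lower in TBP LOF (exact 95% counting interval 61.0 to 1844), and the fitted log2 fold change was -6.89 ± 0.89 (SE) (edgeR, adjusted p = 2.84e-05). RLTR9D_dup165 had 3.36, 11.3 and 46.8 in CONTROL and 0, 0.607 and 3.15 in TBP LOF, without overlap, and fell by 4.76 ± 0.84 (SE) on the log2 scale (edgeR, adjusted p = 0.000513). In RLTR9D2, RLTR9D2_dup117, chosen after its values were seen, had 102 reads in 6 CONTROL embryos and 0 in TBP LOF. Its mean normalised count in CONTROL was 67.0 times the level of 3 reads over the 9 TBP LOF embryos, the largest such ratio. RLTR9A and RLTR9A3 had 2 lower insertions each, of 4 and 12, and none of the 4 RLTR9F insertions was called.

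Outside RLTR9, the copies with the smallest adjusted p in the lower direction were RLTR12B_dup875 and RLTR11B_dup702. RLTR12B_dup875 had 1.01, 6.59 and 15.03 in CONTROL and 0, 0 and 1.20 in TBP LOF, where 1 embryo had 1 read. Its pooled level was 65.0-fold lower (exact 95% counting interval 11.1 to 2625, edgeR, adjusted p = 0.00104). RLTR11B_dup702 had 2.69, 8.60 and 33.8 in CONTROL and 0, 0 and 1.22 in TBP LOF, without overlap, and fell by 4.31 ± 0.84 (SE) on the log2 scale (edgeR, adjusted p = 0.0012). In all, 5 of the 907 insertions had all TBP LOF embryos below all CONTROL embryos, as did 0.785% of TE insertions and 2.71% of genes and insertions together, and none had all of them above (0% and 0.00338%).

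The 9 higher insertions had from 9 to 131 reads in TBP LOF, and with DESeq2 2 of them passed the threshold and 5 had no adjusted p. RLTR27_dup823 had the most reads among them, with 0, 0 and 4.41 in CONTROL and 1.62, 9.44 and 37.8 in TBP LOF. All 9 TBP LOF embryos but only 2 CONTROL embryos had a read, and the copy rose by 3.93 ± 0.97 on the log2 scale (SE, edgeR, adjusted p = 0.00736). RLTR20B3_dup563 had 0, 0 and 0.735 in CONTROL and 0, 3.41 and 11.02 in TBP LOF, from 1 and 42 reads, a pooled level 28.4-fold higher (exact 95% counting interval 4.83 to 1149, edgeR, adjusted p = 0.00665). RLTR10C_dup10, RLTR10C_dup432 and RLTR10B2_dup447 had no read in CONTROL and 14, 17 and 14 reads in TBP LOF, in 6, 5 and 5 embryos. Their mean normalised counts in TBP LOF were 4.61, 4.32 and 3.73 times the level of 3 reads over the 9 CONTROL embryos (edgeR, adjusted p = 0.0261, 0.032 and 0.033). RLTR10C_dup432 was not called when CONTROL embryo 7 was included (edgeR, adjusted p = 0.135), nor RLTR10B2_dup447 without CONTROL embryo 8 or 9.

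Of the 5 insertions with the highest mean over all 18 embryos, 4 were from other families than RLTR9E. RLTR27_dup1131, second in CONTROL (99.7 ± 40.3, SD, n = 9) and in TBP LOF (75.6 ± 59.7), had 61.9, 104 and 192 in CONTROL and 23.7, 52.8 and 199 in TBP LOF (log2 fold change -0.40 ± 0.40 (SE), edgeR adjusted p = 0.574). RLTR11B_dup44 had 8.95, 36.3 and 174 in CONTROL and 15.2, 61.5 and 108 in TBP LOF (-0.04 ± 0.50 (SE), edgeR adjusted p = 0.975). RLTR17_dup401 had 7.16, 38.2 and 94.0 in CONTROL and 28.6, 64.1 and 146 in TBP LOF. Its log2 fold change was 1.02 ± 0.44 (SE) with spike-in scaling (edgeR, adjusted p = 0.128) and 1.66 with TMM scaling, where it passed the test (adjusted p = 0.0144). RLTR49_dup84 had 2.35, 51.9 and 158 in CONTROL and 0, 29.7 and 82.0 in TBP LOF (-1.05 ± 0.68 (SE), edgeR adjusted p = 0.343). In these 4 copies the ranges of the groups overlapped. For RLTR27_dup1131, however, the TBP LOF median (52.8) lay below the lowest CONTROL embryo (61.9). For RLTR17_dup401 the highest TBP LOF embryo (146) lay above the highest CONTROL embryo (94.0). Of the 5 insertions only RLTR9E_dup1052 was called with spike-in scaling.

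**Figure D3:**
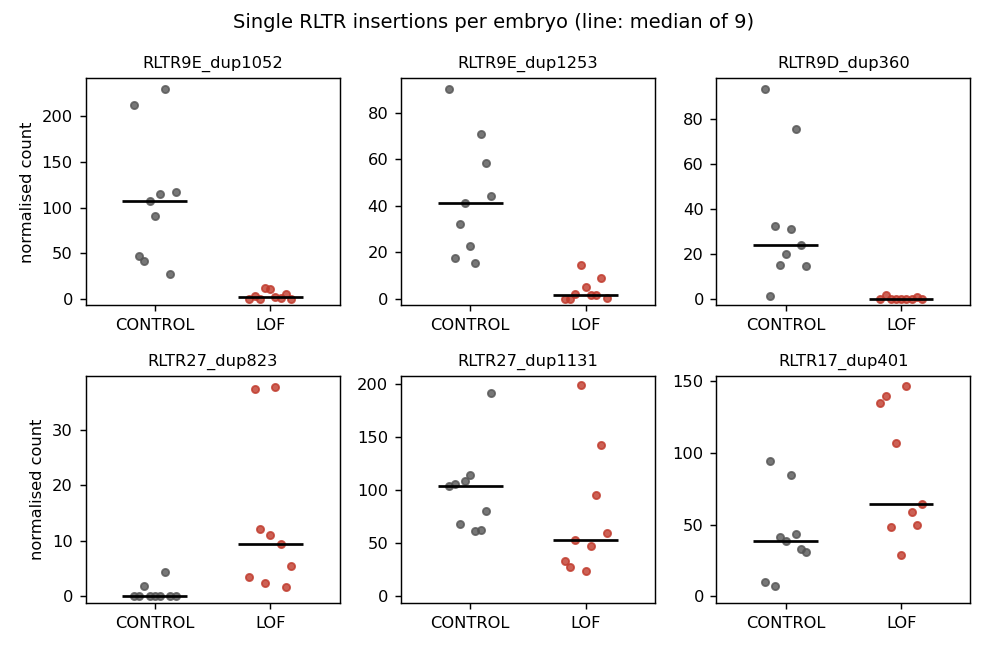
Normalised counts of 6 insertions in each of 9 CONTROL and 9 TBP LOF embryos, 1 point per embryo, with the median as a line and an axis of its own for each insertion. RLTR9E_dup1052 (26.9 to 230 against 0 to 11.96) and RLTR9E_dup1253 did not overlap between the groups, RLTR9D_dup360 overlapped in 1 CONTROL embryo, and RLTR27_dup823 was higher in TBP LOF. The ranges of RLTR27_dup1131 and RLTR17_dup401 overlapped, with the TBP LOF median of RLTR27_dup1131 (52.8) below its lowest CONTROL embryo (61.9).

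Counted per family over all copies, which includes copies too weak to be tested alone, 140 RLTR families could be tested in the TBP experiment. Of these, 38 were lower and 0 higher (edgeR, adjusted p below 0.05 over 19356 genes and TE families, 52 at an unadjusted p below 0.05), or 27.1%, beside 28.7% lower and 0.11% higher of all 909 TE families and 29.7% and 1.34% of genes and families together. Their median log2 fold change was -0.89, and that of all TE families -0.90. With TMM scaling 14 were lower and 13 higher (7.59% and 5.39% of all TE families), and all 14 were among the 38.

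RLTR9E had the smallest adjusted p of all 909 TE families. Its family count was 124 at the lowest, 238 at the median and 559 at the highest in CONTROL and 12.2, 37.1 and 67.0 in TBP LOF. RLTR9E was the only one of the 140 RLTR families in which every TBP LOF embryo lay below every CONTROL embryo, as was the case in 1.32% of all TE families and 6.69% of genes and families together. In CONTROL embryo 2, the lowest at 124, RLTR9E_dup1052 and RLTR9E_dup1253 held 47.0 and 17.5. In TBP LOF embryo 8, at 63.0, each held 1.57. In the family count the 2 copies thus mattered to whether CONTROL embryo 2 lay above TBP LOF embryo 8. Without them, the sums of the other 21 RLTR9E insertions overlapped (20.1 to 98.5 in CONTROL, 2.18 to 34.6 in TBP LOF), but these sums hold only a part of the family count. The RLTR9E family fell by 2.84 ± 0.34 (SE) on the log2 scale (edgeR, adjusted p = 4.22e-09) and by 2.04 with TMM scaling. RLTR9D had 51.0, 89.2 and 240 in CONTROL and 7.31, 15.3 and 51.9 in TBP LOF, with an overlap between its highest TBP LOF and lowest CONTROL embryo, and fell by 2.32 ± 0.37 (SE, edgeR, adjusted p = 1.22e-06). RLTR9D2, at a lower level, had 4.03, 29.7 and 46.5 in CONTROL and 0, 3.03 and 7.97 in TBP LOF and fell by 3.03 ± 0.58 (SE, edgeR, adjusted p = 3.42e-05).

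Within RLTR9, 4 of the 12 families tested were lower, the fourth being RLTR9C. RLTR9A3, whose LTRs are known as enhancers in embryonic stem cells, had a log2 fold change of -0.44 ± 0.39 (SE, edgeR, adjusted p = 0.444) and RLTR9F one of -0.09 ± 0.43 (SE, edgeR, adjusted p = 0.903). Outside RLTR9, RLTR11A had 52.8, 127 and 197 in CONTROL and 10.3, 38.5 and 67.7 in TBP LOF and fell by 1.71 ± 0.33 (SE, edgeR, adjusted p = 3.40e-05). RLTR12A had 9.75, 32.0 and 47.8 in CONTROL and 3.04, 5.81 and 14.6 in TBP LOF and fell by 2.14 ± 0.42 (SE, edgeR, adjusted p = 5.71e-05). In these families all 9 TBP LOF embryos lay below the CONTROL median, while the highest of them reached into the CONTROL range. RLTR45, an LTR with 31 insertions, had 45.7, 139 and 392.4 in CONTROL and 16.8, 74.2 and 94.4 in TBP LOF and fell by 1.49 ± 0.35 (SE, edgeR, adjusted p = 0.000611). Its internal sequence, RLTR45-int, had 46.1, 100.01 and 471 in CONTROL and 8.61, 77.1 and 237 in TBP LOF, with a log2 fold change of -0.65 ± 0.40 (SE, edgeR, adjusted p = 0.223).

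RLTR10C, the RLTR family with the highest level and the most insertions (98, 5.26% of its 1864 copies), had 212, 312 and 612 in CONTROL and 137, 414 and 541 in TBP LOF. Its log2 fold change was 0.01 ± 0.30 (SE, edgeR, adjusted p = 0.993) with spike-in scaling and 0.84 with TMM scaling (adjusted p = 0.00415). It was thus called higher with TMM scaling and not on the spike-in scale. RLTR10B2 had 48.7, 115 and 155 in CONTROL and 45.0, 171 and 236 in TBP LOF (0.50 ± 0.31 (SE), edgeR adjusted p = 0.241, and 1.28 with TMM scaling, adjusted p = 0.00011). RLTR10, the family without a letter, had 120, 204 and 473 in CONTROL and 56.0, 149 and 417 in TBP LOF (-0.16 ± 0.32 (SE), edgeR adjusted p = 0.763). None of the 10 RLTR10 families tested was called on the spike-in scale, and RLTR10A, RLTR10B, RLTR10B2, RLTR10C, RLTR10E and RLTR10F were among the 13 RLTR families called higher with TMM scaling. Of the 98 RLTR10C insertions, 1 was lower and 2 were higher. The lower one was among 13 that reached the minimum of 25% of embryos only in CONTROL, the higher ones among 24 that reached it only in TBP LOF, and 0 of the 61 that reached it in both groups were called (edgeR, 1 at an unadjusted p below 0.05), with a median log2 fold change of -0.07. Of all TE insertions, 28.7% of those only in CONTROL were lower and 4.68% of those only in TBP LOF higher.

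RLTR27 and RLTR17, which had high levels, resembled RLTR10C on both scales. RLTR27 had 115, 154 and 284 in CONTROL and 62.1, 197 and 297 in TBP LOF (log2 fold change -0.02 ± 0.29 (SE), edgeR adjusted p = 0.972, and 0.84 with TMM scaling, adjusted p = 0.00735). RLTR17 had 78.5, 147 and 232 in CONTROL and 47.5, 132 and 223 in TBP LOF (-0.16 ± 0.30 (SE), edgeR adjusted p = 0.749, and 0.67 with TMM scaling, adjusted p = 0.0237). Counts of 5' ends do not grow with the length of a transcript. Families differ in number of copies, and how reads matching several copies were divided is not known, so the order below is of counts only. In order of the mean normalised count in CONTROL the 5 highest RLTR families were RLTR10C (366 ± 147, SD, n = 9), RLTR9E (277 ± 134), RLTR10 (217 ± 104), RLTR27 (182 ± 54.4) and RLTR45 (164 ± 96.6), followed by RLTR17 (156 ± 50.4), and neighbours in this order differed by less than their SDs. In TBP LOF the order was RLTR10C (368 ± 141), RLTR10 (195 ± 123), RLTR27 (180 ± 71.8), RLTR10B2 (154 ± 65.3) and RLTR17 (140 ± 60.3), and RLTR9E (39.1 ± 18.0) ranked 18.

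**Figure D4:**
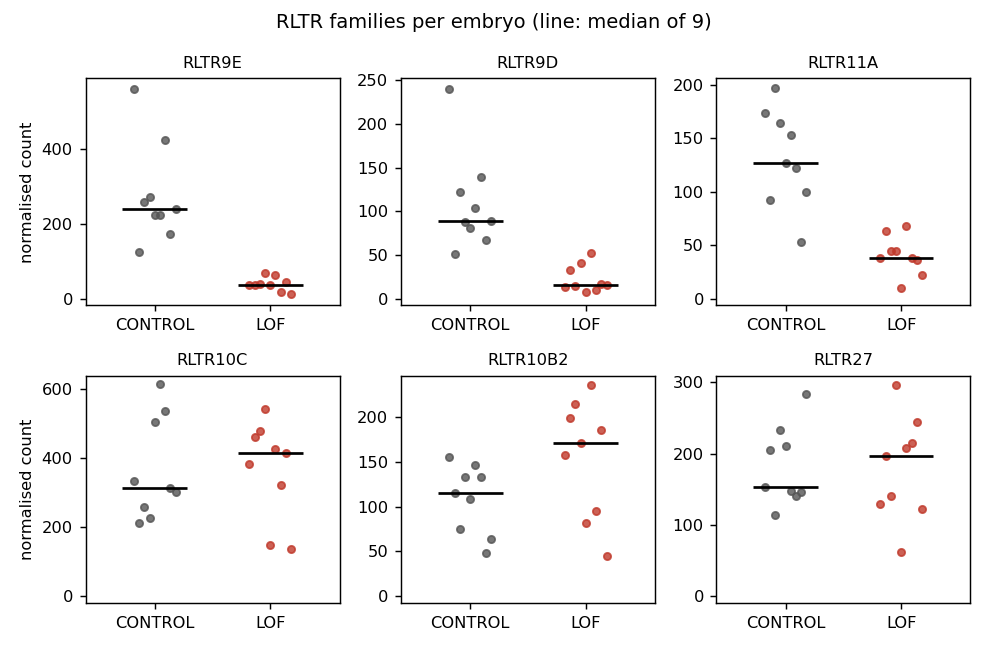
Normalised family counts of 6 RLTR families in each of 9 CONTROL and 9 TBP LOF embryos, 1 point per embryo, with the median as a line and an axis of its own for each family. RLTR9E did not overlap between the groups (124 to 559 against 12.2 to 67.0), RLTR9D and RLTR11A were lower with an overlap, and RLTR10C and RLTR27 overlapped broadly. In RLTR10B2 the TBP LOF median (171) lay above the highest CONTROL embryo (155), and the lowest TBP LOF embryo (45.0) below the lowest CONTROL embryo (48.7).

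In the FOXJ3 experiment, the families served to see whether RLTR levels also differed when another transcription factor was targeted with the same procedure. None of the 140 RLTR families tested passed the threshold with edgeR (0% of 891 TE families and 0.0102% of genes and families together did), 8 had an unadjusted p below 0.05, and DESeq2 called 0 as well, with 10 at an unadjusted p below 0.05. The median log2 fold change over the 140 was -0.15. The smallest adjusted p was that of RLTR20B3A_MM, at 0.633. RLTR9E had 51.4, 233 and 393 in CONTROL and 64.8, 205 and 521 in FOXJ3 LOF, with an overlap that took in all but the lowest part of the CONTROL range, and with a log2 fold change of -0.20 ± 0.25 (SE, edgeR, adjusted p = 0.962). RLTR9D (-0.15 ± 0.21), RLTR11A (-0.18 ± 0.16), RLTR9D2 (-0.16 ± 0.39) and RLTR12A (-0.01 ± 0.25) were likewise not called (log2 fold change ± SE, edgeR adjusted p from 0.944 to 0.9999). The FOXJ3 values came from TMM scaling with library batch in the model and those of TBP from spike-in scaling, and whether the effects of the antibodies differed was not tested.

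**Figure D5:**
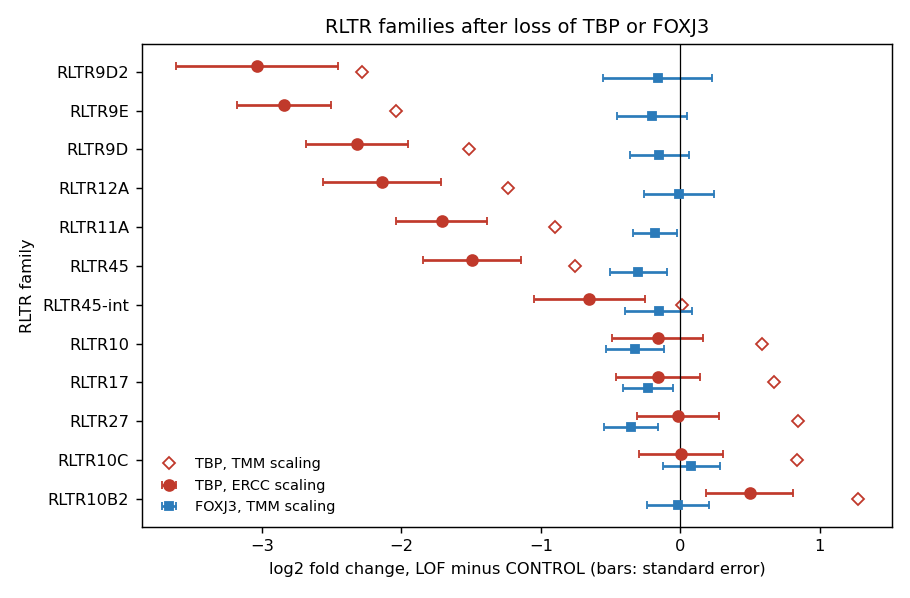
Log2 fold change (LOF minus CONTROL) of 12 RLTR families, those with the smallest adjusted p, the most insertions or the highest mean, with the standard error as bars, for TBP with spike-in scaling (red circles), TBP with TMM scaling (open diamonds, no bars) and FOXJ3 with TMM scaling (blue squares). RLTR9D2, RLTR9E, RLTR9D, RLTR12A and RLTR11A lay between -3.03 and -1.71 for TBP and between -0.20 and -0.01 for FOXJ3, while RLTR10C and RLTR27 moved from near 0 to 0.84 with the scaling.

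The genes that silence or activate ERVK copies were looked at beside the insertions, as a list of 17. Of these, 7 were lower and 0 higher in TBP LOF (edgeR, adjusted p below 0.05, where 29.7% of all genes and TE families were lower), with a median log2 fold change of -0.67. Among the silencing factors, Trim28, the partner of KRAB zinc finger proteins, fell by 1.29 ± 0.32 (SE, edgeR, adjusted p = 0.00107), and Setdb1, the histone methyltransferase it recruits, fell by 1.16 ± 0.37 (SE, edgeR, adjusted p = 0.0124). Dnmt1, the maintenance DNA methyltransferase, fell by 1.27 ± 0.33 (SE, edgeR, adjusted p = 0.00181), and Atf7ip, Ehmt2 and Chaf1a were also lower. None of these 6 passed the test with TMM scaling. Daxx, Atrx, Morc3 and Uhrf1 were not called on either scale (log2 fold changes from -0.67 to -0.32 with spike-ins). The KRAB zinc finger genes Zfp932 (0.19 ± 0.40 (SE), edgeR adjusted p = 0.779) and Gm15446 (0.31 ± 0.48 (SE), edgeR adjusted p = 0.694) were not called with spike-ins, and Zfp932 was higher with TMM scaling (0.98, adjusted p = 0.0255). Of the pluripotency factors that bind RLTR9 enhancers in embryonic stem cells, Esrrb fell by 2.24 ± 0.45 on the spike-in scale (SE, edgeR, adjusted p = 7.90e-05) and by 1.21 with TMM scaling, where it still passed (adjusted p = 0.0248). Pou5f1 had a log2 fold change of 0.65 ± 0.31 on the spike-in scale (SE, edgeR, adjusted p = 0.112) and 1.57 with TMM scaling (adjusted p = 5.59e-05). Klf4 (-0.94 ± 0.47, SE, edgeR, adjusted p = 0.130) was not called on either scale. Nanog and Sox2, with 18 and 29 reads in all, were not called (-0.57 ± 0.96 and -0.43 ± 0.96, SE, edgeR, adjusted p = 0.715 and 0.793).

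The shares of insertions called lower were also counted for IAP and ERV1 elements, without a test between groups. Of 321 insertions of IAP, a group of ERVK elements that still move in the mouse genome, 5.92% were lower, of 721 ERV1 insertions 7.21%, and of all 2599 ERVK insertions, RLTR and IAP included, 10.6%, against 11.8% of RLTR and 11.6% of all TE insertions. With TMM scaling the shares were 2.18%, 3.47%, 5.77%, 6.505% and 5.74% in the same order. ORR1A1, an LTR of the MaLR class with strong activity at the 2-cell stage, fell by 2.20 ± 0.33 as a family (SE, edgeR, adjusted p = 5.91e-07), and MT2_Mm, the LTR of MERVL, had a log2 fold change of 0.30 ± 0.36 (SE, edgeR, adjusted p = 0.582) and was called higher with TMM scaling (1.04, adjusted p = 0.0079). Both had far more reads than any RLTR family, with median normalised counts in CONTROL of 9824 for ORR1A1 and 45238 for MT2_Mm against 238 for RLTR9E and 312 for RLTR10C.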

How the data were processed

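Per the labels and the study's methods, the authors trimmed reads with Trimmomatic, kept the 5' end reads, mapped them with STAR 2.7.11a to GRCm38 carrying the mCherry-Trim21 construct, and counted genes (gencode M20) and TEs with TEcount (families) and TElocal (single insertions). The deposited values are estimated counts (expected counts), all whole numbers, without normalisation. The sources used here do not state the strand setting or the mode for reads that match several copies.

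Embryos with at least 500000 counted reads, 1000 genes, at most 10% mitochondrial and 15% ERCC reads were used, and features with a read in at least 25% of them. Tests were two-sided quasi-likelihood tests (edgeR 4.0.16, R 4.3.3) with Benjamini-Hochberg adjustment over all features, on TBP with size factors from 42 ERCC transcripts (the design of the authors, who used DESeq2) and on FOXJ3 with TMM and batch. Normalised counts are counts over size factors, and SEs were derived from F. Ratios from 1 to 3 reads carry exact 95% Clopper-Pearson intervals. Alternatives were TMM, DESeq2 1.42.0, other filters, all 19 embryos, a replicate block and leaving out each embryo. Named insertions were the 5 with the smallest adjusted p per direction, the 5 highest by mean and the 5 highest of RLTR9E. Named families were the 5 with the smallest adjusted p per direction, with the most insertions or with the highest mean, and RLTR9E. Insertions, families and lists were chosen with earlier results of these data known.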

Additional observations from a re-analysis of the deposited data

Results flagged for a closer look

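Values of single embryos that stood apart from the other 8 of their group were looked for in 76 sets of 9 values. The sets were the named insertions and families and the summed levels. The rule used marks about 1 in 20 sets by chance if values are normally distributed. For sparse read counts its chance rate was not established, as 1 read beside embryos without a read is always marked. This was so for RLTR12B_dup875 in TBP LOF and RLTR20B3_dup563 in CONTROL. There were 12 marked values, each the highest of its group, and whether this exceeds chance cannot be told. CONTROL embryo 1 was the highest of its group for the families RLTR9D (240 normalised counts, the next 139), RLTR45 (392.4, the next 213) and RLTR45-int (471, the next 138), and for the sum of the RLTR9D insertions (185, the next 108). This embryo also had the most Tnfaip6, a cumulus cell gene (45.1), and the only read of Vcan in the TBP embryos used. Of the other cumulus cell genes, Has2 and Ptx3 had no read in any of these embryos, and Col1a1 had none in this one. Whether cumulus cells were left on this embryo was not tested. Without it the families RLTR9D and RLTR45 were still called lower, as in every fit without 1 embryo.

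CONTROL embryo 8 was the highest for RLTR11B_dup702 (33.8, the next 18.4), RLTR20B3_dup563 (0.735, from its only CONTROL read, the next 0) and RLTR27_dup823 (4.41, the next 1.79). CONTROL embryo 10 was the highest for RLTR27_dup1131 (192, the next 115), and CONTROL embryo 6 for the family RLTR10 (473, the next 233).

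In TBP LOF, embryo 8 was the highest for RLTR9D_dup165 (3.15, the next 1.44) and for RLTR9E_dup645 (3.15, the next 0.812). Without it RLTR9E_dup645 passed the threshold (log2 fold change -3.92, edgeR, adjusted p = 0.0236). Embryo 6 held the only TBP LOF read of RLTR12B_dup875 (1.20, the next 0).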

How the results depend on the processing

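With another scaling fewer features were lower and more higher. Of the 907 insertions, 107 were lower and 9 higher with spike-in scaling, 59 and 18 with TMM, and 57 and 21 with size factors of DESeq2 from genes and TEs. Of the 140 families, 38 were lower and 0 higher with spike-in scaling and 14 and 13 with either of the other scalings. The mean difference in the log2 summed level of the insertions (TBP LOF minus CONTROL) was -0.70 with spike-ins and -0.0799 in counts scaled to the total (CPM). Values under TMM and DESeq2 size factors that changed sign were 0.34 and 0.38 for RLTR27_dup1131, 0.67 and 0.78 for RLTR11B_dup44, 0.59 and 0.61 for RLTR10, 0.84 and 0.87 for RLTR27, and 0.67 and 0.70 for RLTR17, and for RLTR45-int 0.0098 under TMM alone. The spike-in share differed between the groups, and the cause of these shifts was not tested.

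The tool and the filter mattered for weak copies. DESeq2 with spike-in size factors called 73 insertions lower and 4 higher, with 57 of the 107 lower insertions past the threshold and 23 without an adjusted p. The filter of edgeR (filterByExpr) left 19 insertions to test, 2 lower and 1 higher, and no filter gave 156 lower and 22 higher of 10125. With all 19 embryos RLTR11B_dup44 had a log2 fold change of 0.034. Families summed from single insertions gave 33 lower of 139.

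Leaving out 1 embryo at a time gave 83 to 113 lower and 4 to 10 higher insertions, 5 higher without CONTROL embryo 1 and 4 without CONTROL embryo 9, and 30 to 44 lower families with 0 higher. Of the 107 lower insertions 71 passed in all 18 of these fits, as did 4 of the 9 higher ones. RLTR10B2_dup447 missed the threshold without CONTROL embryo 8 (adjusted p = 0.0504, edgeR) and without CONTROL embryo 9 (adjusted p = 0.0508, edgeR). Log2 fold changes that changed sign ranged from -0.18 to 0.29 for RLTR11B_dup44, from -0.19 to 0.59 for RLTR9E_dup1070, from -0.0708 to 0.13 for RLTR10C, from -0.38 to 0.0625 for RLTR10 and from -0.13 to 0.0941 for RLTR27, none of them called. RLTR9E stayed between -2.96 and -2.66, with adjusted p of at most 4.16e-08 (edgeR).

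Embryos of the groups share replicate numbers, but same-numbered embryos did not deviate together in every pair (correlations from -0.16 to 0.25 over TBP insertions, -0.05 to 0.13 over TBP families and -0.21 to 0.27 over FOXJ3 families, 4 of the 7 TBP pairs above 0.1 over insertions and 1 over families), and no label ties a number to a shared origin, so the numbers were not taken as pairs. With the replicate number as a block, which leaves 7 pairs, 16 insertions were lower and 1 higher, against 30 and 4 in the same embryos without the block, a comparison added after seeing the data. RLTR20B3_dup563 was not called with the block (edgeR, adjusted p = 0.0692), and RLTR10C_dup10, RLTR10C_dup432, RLTR10B2_dup447 and RLTR9E_dup932 were among those not called in these embryos with the block (edgeR, adjusted p from 0.0935 to 0.372) or without it (edgeR, adjusted p from 0.0561 to 0.0738). Of the families, 24 were lower and 1 higher with the block and 22 and 0 without it. With the block, the values that changed sign were 0.29 for RLTR11B_dup44, 0.0844 for RLTR10, 0.15 for RLTR27 and 0.0082 for RLTR17, and without the block in the same embryos 0.0946 for RLTR10 and 0.16 for RLTR27.

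In the FOXJ3 experiment no RLTR family was called under any of the 7 alternatives. Log2 fold changes with the other sign were, with spike-in scaling, 0.0248 for RLTR9E, 0.0653 for RLTR9D, 0.0274 for RLTR11A, 0.032 for RLTR9D2 and 0.22 for RLTR12A, with the replicate block 0.0843 for RLTR12A, and in the same embryos without the block 0.0915 for RLTR9D2 and 0.0942 for RLTR12A. Depth limits the single copies: with a median of 20 reads over 18 embryos, a copy that was not called cannot be said to be unaffected.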
